A study of Xenopus laevis with 28 samples.

Results

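Whole embryos of Xenopus laevis, the African clawed frog, were compared at stage 20 of Nieuwkoop and Faber, the late neurula, and at stage 25, the early tailbud embryo. The 4 libraries compared are those labelled stage 20 and stage 25 in each of 2 clutches, named Taira and Ueno, among 28 libraries in the series. All came from the J strain, an inbred line, with no treatment given in the labels, and each clutch came from a separate pair of parents and gave 1 library per stage (n = 2 per stage). The library titles of the 2 clutches also carry different names and number codes. A difference between the clutches therefore cannot be told apart from one between these sets of libraries. PolyA RNA of whole embryos was sequenced without keeping the strand, and the deposited values are TPM (transcripts scaled to the same total in every library) for 45831 gene models, of which 25308 carry a gene symbol.

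Around stage 20 the neural folds have met and the neural tube has closed, and by stage 25 the body axis is lengthening from a tailbud. In frog embryos of this age the somites are forming the first striated muscle fibres of the trunk, the first neurons of the spinal cord are extending axons, and the skin carries ciliated, secretory and ion-transporting cells. X. laevis is an allotetraploid, so many genes have a copy on a long (L) and a copy on a short (S) set of chromosomes, given as a suffix to the symbol. In RNA of whole embryos, fewer cells of a type and less RNA per cell cannot be told apart.

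Changes are given as differences of log2(TPM + 1), stage 25 minus stage 20, which understates the change of genes at low TPM, and ± after a change is its standard error. A gene model was called when the adjusted p (Benjamini-Hochberg, over 27777 gene models) was under 0.05 in a limma fit of stage and clutch to the 20 libraries from egg to stage 35. The replicates are the clutches, so a p-value speaks of the spread between these libraries around the stages of the fit, estimated over all 20 libraries and not from stages 20 and 25 alone. The early libraries thus enter the spread of genes that are near 0 there, such as pgam2.S at 0 to 0.16 TPM from egg to stage 12. How far this lowers the standard errors of such genes was not tested. In sentences on single genes, paired values are in the order Taira, Ueno.

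By rank correlation across gene models, stage 20 Ueno and stage 25 Taira were each closest to the library of their own stage in the other clutch. The library of stage 20 Taira was closer to stage 15 Ueno (Spearman's rho 0.920) than to stage 20 Ueno (0.903), and that of stage 25 Ueno was closer to stage 30 Taira (0.914) than to stage 25 Taira (0.907). Within a clutch the correlation between the stages was higher, at 0.969 in Taira and 0.960 in Ueno. From 18667 to 23433 models reached 1 TPM in a library, with more in Taira than in Ueno at both stages, and models without a symbol took 35.0% to 38.4% of all TPM.

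From stage 20 to stage 25, 93 gene models rose and 15 fell, which is 0.335% and 0.054% of the models tested (0.389% in either direction). At an unadjusted p under 0.05 there were 1434 higher and 428 lower. Of the called models, 55 that rose and 8 that fell carry a symbol. Many were at low levels: 42 of the 93 reached a mean of 10 TPM at stage 25, and 7 of the 15 at stage 20. Listed at 0 in both stage 20 libraries were 7 of the rises, and at 0 in both stage 25 libraries 3 of the falls. In all 93 and all 15, both libraries of one stage lay beyond both of the other, and 91 of the 93 and all 15 changed by over 1 on the log2 scale in each clutch. The calls were made on these same libraries, so this separation is no further support. Its share over all models was not counted. The number of calls depends on the libraries that enter the fit and on the clutch block. With all 22 staged libraries, stage 40 included, 2 were called higher and none lower. With the libraries of stages 20 and 25 alone, or of stages 15 to 30 alone, none was called in either direction. Without the clutch block 40 were called higher and 5 lower. Leaving out the library of stage 20 Ueno, stage 20 Taira or stage 25 Taira gave 21, 36 and 52 called higher. Quantile normalization moved the split to 120 higher and 44 lower, and a pseudocount of 0.1 gave 26 higher and 7 lower.

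A description that uses no test was set beside these calls, chosen after the number of calls was seen: a difference of at least 1 in both clutches in the same direction. It held for 431 models upward (1.55%) and 129 downward (0.464%). Clutch Taira alone had 1165 models at least 1 higher and 468 at least 1 lower, and clutch Ueno 942 and 370. Only 15 models were at least 1 higher in Taira and at least 1 lower in Ueno, and 21 the reverse. Above 0 in both clutches were 45.3% of the models and below 0 in both 21.8%, and the median change over all models was 0.10. Median-of-ratios scaling placed that median at 0.00 and quantile normalization at -0.01, so small changes of a list are read against the median of all models.

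**Figure D1:**
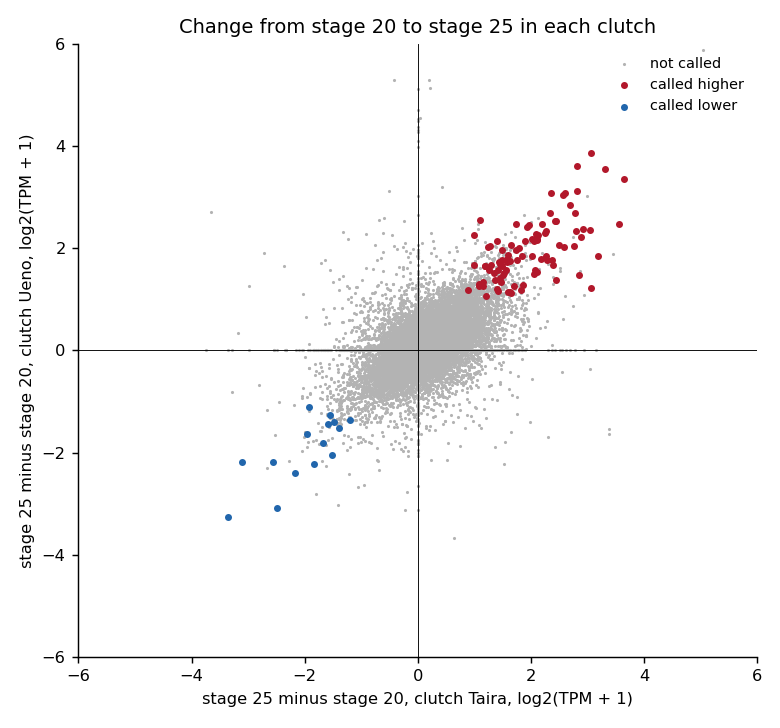
Difference of log2(TPM + 1) between stage 25 and stage 20 for 27777 gene models, in clutch Taira (x axis) and clutch Ueno (y axis). Grey points were not called, the 93 red points were called higher and the 15 blue points called lower. The called points lie at the upper right and lower left. Gene models near the vertical axis at the top were higher at stage 25 in clutch Ueno, with little change in clutch Taira.

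Striated muscle genes stood highest among the lists. The list holds proteins of the sarcomere, of calcium handling and of the energy supply of skeletal muscle, and 7 of its 62 members tested rose and none fell. This count was 3 without the clutch block and 2 without the library of stage 20 Ueno. A difference of at least 1 in both clutches was seen in 19 upward and none downward. Over all models, 0.335% were called higher and 1.55% were at least 1 higher in both clutches. The median change was 0.92 against 0.10 over all models. Higher in both clutches were 61 of the 62 (98.4%, against 45.3% of all models). With median-of-ratios scaling there were 60 (96.8%, against 34.2%) and with quantile normalization 59 (95.2%, against 31.2%). Summed over the list, the TPM went from 3872 to 7252 in Taira and from 5697 to 10306 in Ueno.

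The muscle genes that rose most serve glycolysis and the Z-disc. The muscle form of phosphoglycerate mutase, pgam2.S (Xelaev18020273m), was at 3.95 and 1.82 TPM at stage 20 and at 29.1 and 22.9 at stage 25. Its change was 2.84 ± 0.27 (limma, adjusted p = 0.000388), and its partner copy pgam2.L went from 49.1 and 14.4 TPM to 200.0 and 87.2 without passing the test (adjusted p = 0.154). Both copies were thus higher at stage 25 in each clutch, and the L copy held most of the transcripts. Myozenin myoz1.S (Xelaev18037139m), which ties the Z-disc to calcineurin, was at 1.64 and 0.25 TPM and then at 17.0 and 4.19 (2.41 ± 0.46, limma, adjusted p = 0.0393). Its relative myoz2.S went from 0.59 and 0.30 TPM to 10.5 and 2.63 (2.17 ± 0.38), and myoz2.L from 2.14 and 0.55 to 10.2 and 4.58 (1.84 ± 0.36). Stage 25 Taira was the highest of the 4 libraries for all 3 myozenin models.

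The embryonic and atrial myosin light chain myl4.S (Xelaev18046082m) stood at 18.9 and 30.7 TPM at stage 20 and at 102 and 107 at stage 25. This change of 2.07 ± 0.34 (limma, adjusted p = 0.0167) followed levels of 0.41 and 1.18 TPM at stage 15, so the gene came up from near 0 within the neurula stages. With median-of-ratios scaling it no longer passed the test. The copy myl4.L was at 3.89 and 3.78 TPM and then at 6.83 and 6.92, and reached 63.2 and 81.2 at stage 30.

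Other muscle genes, none of them called, ranged widely in level at stage 20. Muscle creatine kinase ckm.L, which rebuilds ATP at the myofibril, went from 250 and 262 TPM to 515 and 576 (1.09 ± 0.44). Fast troponin C, tnnc2.L, went from 110 and 68.4 TPM to 273 and 207 (1.44 ± 0.47), and the M-band protein myom2.L from 3.48 and 0.29 to 16.1 and 2.49. Cardiac alpha-actin actc1.L, an actin of the early frog myotome, stood at 70.7 and 177 TPM and then at 92.5 and 218, a difference of 0.34 ± 0.34. By role, the median change was 1.13 over 13 Z-disc and intermediate filament models, 0.88 over 14 of calcium and excitation, 0.80 over 11 of the thick filament, 0.77 over 13 of the thin filament and 0.58 over 11 of energy supply.

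Genes of the muscle side of the nerve contact were among the 55 named models that rose. They are given here because they stood out once the values were seen. Rapsyn rapsn.S, which gathers acetylcholine receptors under the nerve ending, was at 4.76 and 4.53 TPM at stage 20 and at 18.1 and 20.7 at stage 25 (1.85 ± 0.24, limma, adjusted p = 0.00294). Acetylcholinesterase, the enzyme that clears the transmitter, rose in the models ache.L (1.42 and 1.47 to 10.6 and 7.91 TPM) and ache.1 (1.36 and 0.55 to 5.57 and 2.90). The receptor subunit chrne.L went from 2.32 and 5.37 TPM to 10.2 and 17.0 and missed the threshold (1.63 ± 0.34, limma, adjusted p = 0.0594). Muscle AMP deaminase ampd1.L (0.98 and 0.95 to 7.94 and 5.71 TPM) and the muscle caveolin cav3.2.L (2.42 and 3.53 to 11.1 and 9.29 TPM) rose as well.

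The regulators of muscle fate did not follow the contractile genes. None of 24 myogenic regulators was called, and their median change was -0.04. The determination factor myod1.S stood at 401 and 636 TPM and then at 243 and 420 (-0.66 ± 0.44), and myf5.L at 49.8 and 39.5 and then at 28.2 and 22.9 (-0.78 ± 0.34). At least 1 higher in both clutches were 2 members, myf6.L, the factor of late muscle differentiation (13.4 and 7.90 to 28.1 and 16.8 TPM), and mef2a.S, a partner of the myogenic factors (6.16 and 1.07 to 14.7 and 3.58 TPM). Over all models, 1.55% were at least 1 higher in both clutches. The summed TPM of the myogenic regulators was lower at stage 25 in each clutch, from 879 to 666 in Taira and from 1075 to 830 in Ueno.

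**Figure D2:**
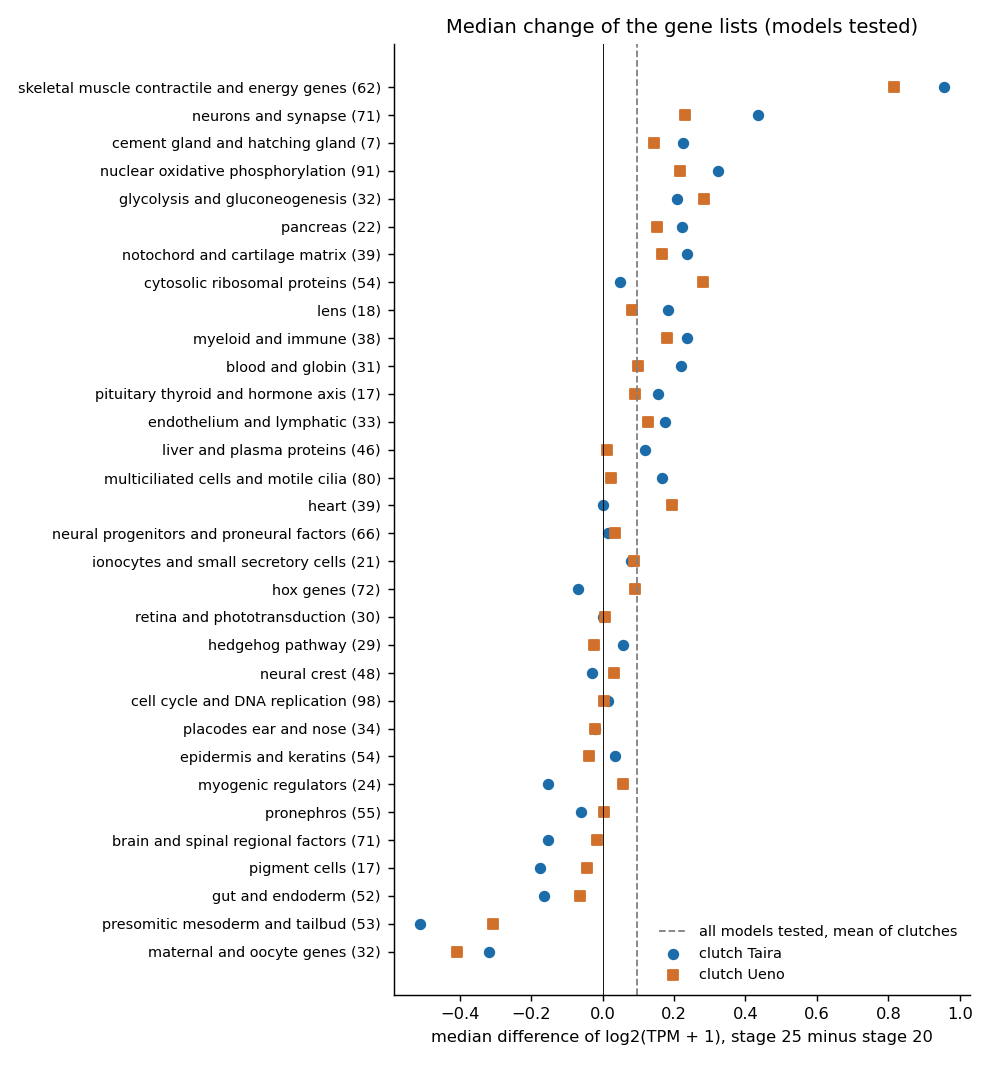
Median difference of log2(TPM + 1), stage 25 minus stage 20, over the tested members of 32 gene lists (number of models in brackets), in clutch Taira (circles) and clutch Ueno (squares), with the median of all models tested as a dashed line at 0.10. Skeletal muscle stands at 0.96 and 0.81, and presomitic mesoderm and tailbud and maternal and oocyte genes lie below 0 in both clutches.

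Of 71 neuronal models 1 was called higher and none lower, with 5 at least 1 higher in both clutches and a median change of 0.40. Over all models, 0.335% were called higher and 1.55% were at least 1 higher in both clutches. Higher in both clutches were 54 of the 71 (76.1%, against 45.3% of all models). With median-of-ratios scaling there were 51 (71.8%, against 34.2%) and with quantile normalization 45 (63.4%, against 31.2%). The called member was mapt.S (Xelaev18046081m), tau, which binds axonal microtubules. It was at 1.78 and 2.50 TPM at stage 20 and at 10.5 and 14.5 at stage 25, after 0.17 and 0.05 at stage 15 (2.1 ± 0.29, limma, adjusted p = 0.00474). With median-of-ratios scaling it was not called. The copy mapt.L went from 2.94 and 3.61 to 7.24 and 8.88 TPM (1.08 ± 0.25, adjusted p = 0.102 in the same limma fit).

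Among neuronal genes that were not called, both transmitter types were represented. The vesicular glutamate transporter slc17a7.L stood at 1.70 and 1.11 TPM and then at 5.36 and 4.09, and the vesicular GABA and glycine transporter slc32a1.S at 1.55 and 0.49 and then at 5.98 and 3.03. Internexin ina.S, a neuronal intermediate filament, stood at 1.31 and 0.12 and then at 4.23 and 1.43. Cytoskeletal and RNA-binding members had a median change of 0.79 over 19 models, against 0.06 over 14 neuronal transcription factors and 0.08 over 9 channels and receptors.

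Neural precursor genes showed little net change. Of 66 progenitor and proneural models none was called (median 0.05), and 2 were at least 1 higher in both clutches (against 1.55% of all models). These are the radial glia lipid carrier fabp7.L (8.30 and 0.64 to 33.6 and 5.13 TPM) and the proneural factor atoh1.S (1.12 and 2.06 to 4.17 and 5.96 TPM). The regional factors of brain and spinal cord (71 models, none called, median -0.05) held dlx2.L, a forebrain and branchial crest homeobox gene, at 13.7 and 5.90 TPM and then 32.4 and 17.1. Of the 71, 20 (28.2%) were higher and 29 (40.8%) lower in both clutches, against 45.3% and 21.8% of all models. Of 72 hox models none was called (median 0.04, and -0.04 and -0.09 with the other scalings), while hoxd1.L went from 17.6 and 12.0 to 6.15 and 3.83 TPM and hoxd1.S from 23.9 and 17.6 to 11.1 and 8.21. Both hoxd1 copies were lower at stage 25 in each clutch.

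A keratin gene led the named rises. Keratin krt16.L (Xelaev18043117m) was at 2.82 and 1.04 TPM at stage 20, at 46.9 and 19.9 at stage 25 and at 241 and 181 at stage 30. Its change of 3.50 ± 0.35 (limma, adjusted p = 0.000499) was the largest among the named models that met the rule for naming, and its copy krt16.S went from 68.5 and 15.3 to 261 and 57.7 TPM without being called. Over the epidermis and keratin list, 1 of 54 was called, against 0.389% of all models, and the median change was -0.03. The 16 keratin models had a median of 0.23 and the 38 others a median of -0.09, and the summed TPM of the list was 30340 and 51729 and then 33648 and 53226. Both krt16 copies were thus at least 1 higher on the log2 scale in each clutch, with only krt16.L called. The total of the list moved by less than the difference between the clutches.

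Elastin eln2.L (Xelaev18045677m), an elastic fibre protein, was at 0.67 and 0.76 TPM at stage 15, at 7.96 and 6.51 at stage 20 and at 61.7 and 64.3 at stage 25. The clutches lay close together and the change was 2.96 ± 0.29 (limma, adjusted p = 0.000410). Other matrix and secreted proteins rose too, named here after their values were seen. They include tinagl1-like.L, similar to a basement membrane protein (2.53 and 1.05 to 14.1 and 8.18 TPM), the procollagen processing enhancer pcolce.1 (1.92 and 2.33 to 7.43 and 8.49 TPM), the cross-linking transglutaminase tgm2.1 (4.15 and 3.36 to 14.3 and 14.1 TPM) and col11a1-like.S, similar to a fibrillar collagen (0.19 and 0.07 to 2.61 and 1.36 TPM).

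The remaining named rises had other roles. The interferon-induced transmembrane protein ifitm1.S (Xelaev18024344m) was at 28.9 and 31.3 TPM and then at 136 and 180 (2.34 ± 0.28, limma, adjusted p = 0.00167). The secreted axon guidance protein sema3b.S went from 4.67 and 2.60 to 18.5 and 13.4 TPM (1.89 ± 0.26), and the membrane protein marveld1.L from 4.42 and 2.41 to 16.0 and 13.2 (1.86 ± 0.28). Models that carry only a locus symbol were LOC100491886.L (13.6 and 3.46 to 72.5 and 27.7 TPM), LOC100492806-like.L (1.80 and 0.95 to 15.7 and 6.98), LOC100145523.L (6.21 and 1.83 to 27.0 and 14.4), LOC496414.S (1.54 and 2.47 to 10.1 and 15.7) and LOC100135371.L (23.2 and 54.9 to 130 and 144). With median-of-ratios scaling LOC100135371.L was not called. In each of these 8 models, as in every called rise, both stage 25 libraries lay above both stage 20 libraries. The models were called on these same libraries, so this is no further support.

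**Figure D3:**
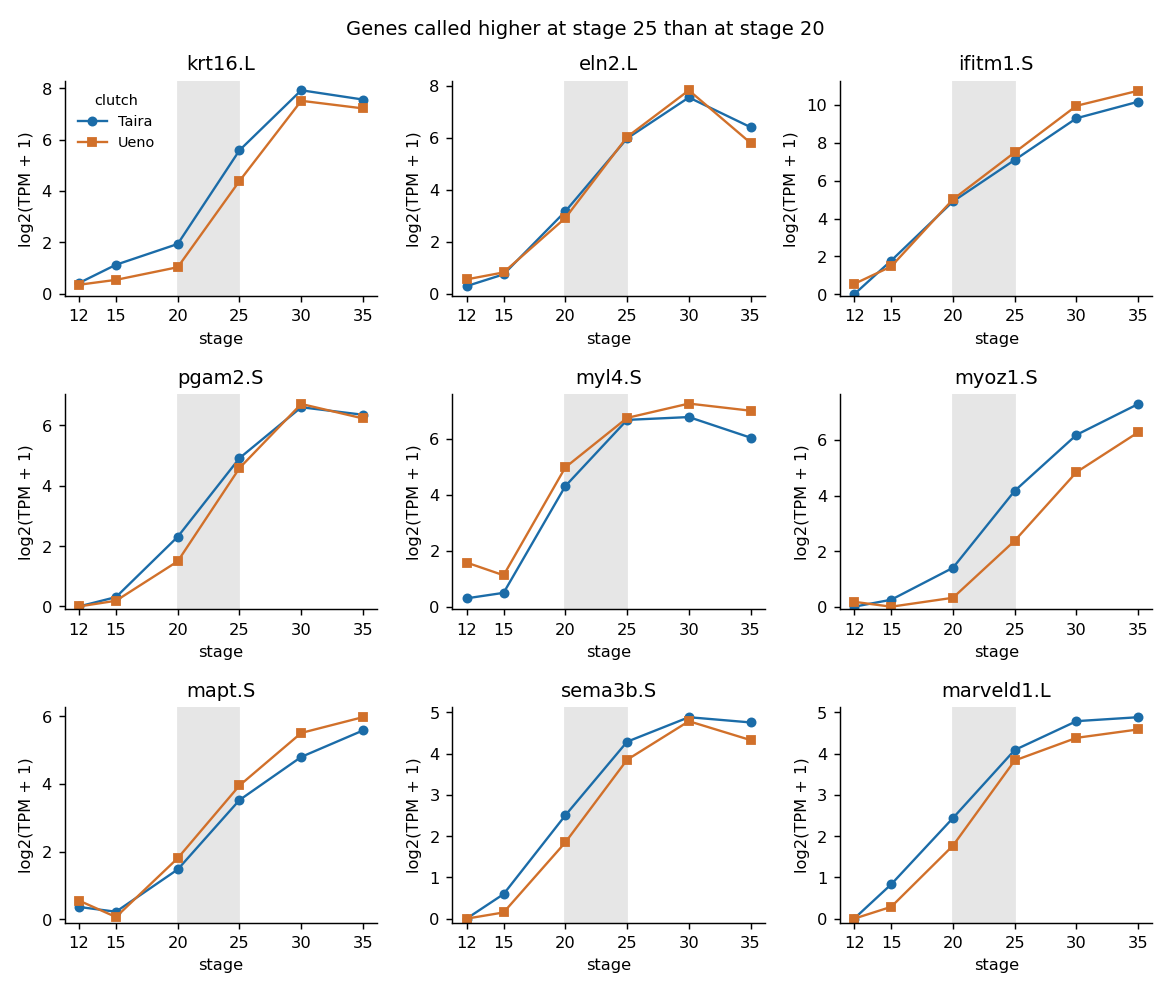
Level in log2(TPM + 1) from stage 12 to stage 35 of 9 genes called higher at stage 25 than at stage 20, in clutch Taira (circles) and clutch Ueno (squares), with the interval from stage 20 to stage 25 shaded and 1 library per point. All 9 were already above their stage 15 level at stage 20 in both clutches, and krt16.L, for example, went on from 46.9 and 19.9 TPM at stage 25 to 241 and 181 at stage 30.

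The list of ionocytes, the ion-transporting cells of the skin, and small secretory cells had 1 called member of 21, against 0.389% of all models. It holds 18 ionocyte and 3 small secretory models tested. The ammonium transporter rhbg.S rose from 1.11 and 0.65 to 4.58 and 2.82 TPM (1.31 ± 0.23, limma, adjusted p = 0.0221). Quantile normalization left it uncalled. Carbonic anhydrase ca2.S, which supplies protons and bicarbonate, stood at 51.5 and 33.3 TPM and then at 123 and 76.2 and was not called. The median of the list was 0.05.

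Of 80 multiciliated cell and motile cilia models, 1 fell and none rose, against 0.054% and 0.335% of all models. The one that fell is ccdc67.L, a component of the deuterosome, the structure on which ciliated cells multiply their centrioles. It was at 11.0 and 15.0 TPM at stage 15, at 4.55 and 2.32 at stage 20 and at 0.42 and 0.06 at stage 25 (-1.81 ± 0.32, limma, adjusted p = 0.0233). Tektin tekt3.S, a protein of the axoneme, was not called and stood at 15.6 and 13.7 and then at 35.7 and 32.3 TPM. The median change was -0.08 over 22 regulators and 0.15 over 58 axoneme models, neither far from the 0.10 of all models.

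The named falls were led by a gene of uncommitted cells. The class V POU factor pou5f3.1.L (Xelaev18038233m), related to mammalian Oct4, was at 177 and 594 TPM at stage 15, at 68.1 and 76.6 at stage 20, at 10.7 and 16.0 at stage 25 and at 3.13 and 3.45 at stage 30. Its change from stage 20 to stage 25 was -2.38 ± 0.44 (limma, adjusted p = 0.0324), and it was not called with median-of-ratios scaling. The copy pou5f3.1.S went from 11.3 and 18.3 to 2.99 and 3.03 TPM and lay just beyond the threshold (-1.94 ± 0.39, limma, adjusted p = 0.0523). Both copies were lower at each later stage from stage 15 to stage 25 in both clutches.

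Vestigial-like vgll3.L (Xelaev18011567m), a cofactor of TEAD transcription factors, fell from 18.8 and 7.78 to 3.43 and 0.66 TPM (-2.28 ± 0.37, limma, adjusted p = 0.0142), after 35.0 and 34.8 at stage 15. The zeta-type globin hbz.L (Xelaev18045092m) fell from 46.3 and 56.4 to 16.9 and 19.1 TPM (-1.46 ± 0.24, limma, adjusted p = 0.0167). Of 31 blood and globin models it was the 1 that fell and 0 rose, against 0.054% and 0.335% of all models. Transcripts of hbz.L were already in the egg, at 189 and 136 TPM. They stood at 303 and 272 at stage 9 and at 61.2 and 76.6 at stage 15, so the fall continued an earlier decline. Quantile normalization left hbz.L uncalled. Without a name of known role, LOC100495756-like.L (23.8 and 25.1 to 7.69 and 5.34 TPM) and Xetrov90021856m.1 (27.6 and 28.8 to 6.52 and 12.8 TPM) also fell, and Xetrov90021856m.1 was not called with either other scaling.

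With 5 symbols meeting the rule for falls, 5 further genes with large drops were taken that did not pass the test and are given as values. The embryonic cyclin ccna1.S was at 13.9 and 16.4 TPM and then at 1.34 and 2.54 (limma, adjusted p = 0.0902), and the germ plasm translational regulator nanos1.L at 8.78 and 15.2 and then at 1.53 and 3.37 (limma, adjusted p = 0.107). The gastrula gene gs17.L stood at 78.2 and 96.1 and then at 19.7 and 26.8 TPM, LOC733561.S at 128 and 136 and then at 36.4 and 39.8, and the aminopeptidase anpep.S at 112 and 28.1 and then at 27.4 and 8.60. In all 5, both stage 25 libraries lay below both stage 20 libraries. The 5 were picked by their drop in these same libraries, so this is no separate support.

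**Figure D4:**
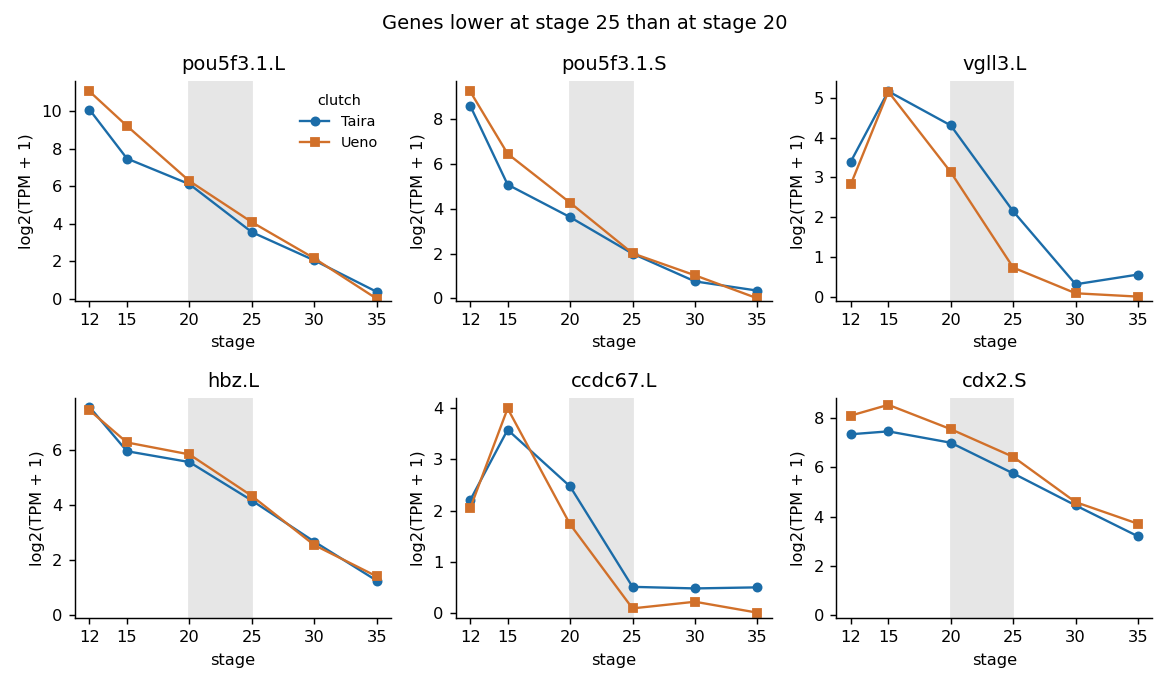
Level in log2(TPM + 1) from stage 12 to stage 35 of 6 genes that were lower at stage 25 than at stage 20, in clutch Taira (circles) and clutch Ueno (squares), with the interval shaded. The genes pou5f3.1.L, vgll3.L, hbz.L and ccdc67.L were called, and pou5f3.1.S (adjusted p = 0.0523, limma) and cdx2.S (adjusted p = 0.489, limma) were not.

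Presomitic mesoderm and tailbud genes, which pattern the growing tail end and set the pace of the somites, lay below the median of all models as a list without any single call. None of 53 was called, 2 were at least 1 lower in both clutches (against 0.464% of all models) and the median change was -0.33. Lower in both clutches were 37 of the 53 (69.8%, against 21.8% of all models). With median-of-ratios scaling there were 39 (73.6%, against 32.7%) and with quantile normalization 41 (77.4%, against 36.5%). The 22 transcription factors had a median of -0.77 and the 31 signalling genes a median of -0.22. The posterior homeobox gene cdx2.S stood at 127 and 186 TPM and then at 53.0 and 85.0 (-1.18 ± 0.44, limma, adjusted p = 0.489), and cdx1.S at 55.7 and 8.93 and then at 16.4 and 3.23 (-1.47 ± 0.60, limma, adjusted p = 0.597). Summed over the list, the TPM was 1558 at stage 20 and 969 at stage 25 in Taira, and 1113 and 812 in Ueno.

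Maternal and oocyte genes also lay below the median of all models, with none of 32 called and a median of -0.36. Beside nanos1.L, the egg coat gene zp4.S stood at 7.21 and 12.2 TPM and then at 2.46 and 4.12. The list's summed TPM was 305 and 323 at stage 20 and 270.0 and 316 at stage 25. Of 98 cell cycle and replication genes none was called and the median was -0.01. At least 1 lower in both clutches were 4 (against 0.464% of all models): both ccna1 copies and both copies of the survivin gene birc5.1.

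In the neural crest list, 3 of 48 models were at least 1 higher and 1 at least 1 lower in both clutches, and none was called (median 0.00). Over all models, 1.55% were at least 1 higher and 0.464% at least 1 lower in both clutches. The crest and ear factor sox8.L stood at 29.3 and 12.5 TPM and then at 9.53 and 4.99 (-1.35 ± 0.31, limma, adjusted p = 0.0900). The mesenchyme homeobox gene prrx2.S stood at 1.84 and 2.48 and then at 7.54 and 7.82 (1.47 ± 0.33, limma, adjusted p = 0.0837). Schwann and pigment lineage factor sox10.L differed more between the clutches than between the stages, at 32.6 and 4.45 TPM and then 22.9 and 3.60. None of 17 pigment, 18 lens, 30 retina, 34 placode or 7 cement gland models was called. With 0.389% of all models called in either direction, an absence of calls says little about lists of this size.

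No member of the heart, vessel, immune, liver, cartilage, pancreas, gut or kidney lists was called. Only 0.389% of all models were called in either direction, so this says little about lists of their size. In the heart list (39 models, none called, median 0.06) the 4 that were at least 1 higher in both clutches included the cardiac and slow muscle troponin C copies tnnc1.S (56.5 and 18.8 to 167 and 58.6 TPM) and tnnc1.L (5.26 and 1.52 to 13.8 and 6.98), and the heart and branchial factor hand2.L (3.27 and 4.83 to 7.62 and 14.8). This troponin C is also expressed in embryonic skeletal muscle. Over all models, 1.55% were at least 1 higher in both clutches. In endothelium (33 models, none called) the vessel gene egfl7 was higher in both copies, at 3.18 and 3.27 and then 7.73 and 10.9 TPM for egfl7.S (limma, adjusted p = 0.0704) and 1.15 and 1.48 and then 4.63 and 3.76 for egfl7.L (limma, adjusted p = 0.0671).

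Myeloid and immune genes (38 models, none called, median 0.13) held 5 that were at least 1 higher in both clutches (against 1.55% of all models). All 5 were effectors. They were the matrix proteases mmp1.S, mmp7.L and mmp13.S, the lysosomal protease ctss.S and the oxidase subunit cyba.L, with mmp7.L at 5.46 and 1.76 TPM and then 15.8 and 5.37. Liver and plasma proteins (46 models, none called, median 0.10) held the lipoprotein apoe.S at 19.8 and 1.86 and then 90.0 and 16.3, a gene that macrophages and glia also express. The cartilage and notochord list (39 models, none called, median 0.20) held the collagen col9a1.S at 3.82 and 0.69 and then 16.8 and 9.68. In all 3 of these genes the level in Ueno was below that in Taira at both stages.

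Pancreas genes (22 models, none called, median 0.21) had 12 members higher (54.5%) and 6 lower (27.3%) in both clutches. Over all models these shares were 45.3% and 21.8%. The list had 10 higher and 7 lower with median-of-ratios scaling, and 7 and 8 with quantile normalization. The hormone somatostatin, sst.L, stood at 23.5 and 47.7 TPM and then at 41.9 and 87.8, and the zinc transporter slc30a8.L at 216 and 78.3 and then at 74.1 and 31.8. The copy sst.S was lower at stage 25 in each clutch, at 11.4 and 22.3 TPM and then 10.1 and 18.2. The gut and endoderm list (52 models, none called) had a median of -0.15. Its 2 members at least 1 lower in both clutches (against 0.464% of all models) were cdx1.S and cdx2.S, which the tailbud list also holds. Pronephros genes (55 models, none called, median -0.04) held the sodium pump subunit atp1b1.L at 29.9 and 8.13 and then 61.2 and 21.5. Of the 55, 21 (38.2%) were higher and 22 (40.0%) lower in both clutches, against 45.3% and 21.8% of all models. Their summed TPM was 1796 and 1866 at stage 20 and 1629 and 1818 at stage 25 (Taira, Ueno). Hedgehog pathway (29 models) and hormone axis (17 models) genes had no call and none at least 1 higher or lower in both clutches.

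Housekeeping lists held 1 call. Nuclear genes of oxidative phosphorylation had a median of 0.25 with none of 91 called. Higher in both clutches were 66 (72.5%), then 44 (48.4%) with median-of-ratios scaling (median 0.11) and 63 (69.2%) with quantile normalization (median 0.23). Over all models these shares were 45.3%, 34.2% and 31.2%. Cytosolic ribosomal protein genes had a median of 0.17 with none of 54 called and 33 (61.1%) higher in both clutches. This number was 11 (20.4%) with median-of-ratios scaling (median 0.02) and 41 (75.9%) with quantile normalization (median 0.18). The ribosomal genes thus lay below the share of all models with median-of-ratios scaling and above it otherwise. Their summed TPM was 32495 and 41611 at stage 20 and 34057 and 50305 at stage 25. Glycolysis and gluconeogenesis had 1 called of 32 (against 0.389% of all models), which is pgam2.S, already described among the muscle genes.

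Of the 93 models that rose, 38 carry no symbol, and some lie next to each other in the numbering of the gene models. A run of 9 consecutive models that begins at Xelaev18045301m was called throughout, with changes from 2.27 to 3.43 (limma, adjusted p from 0.000388 to 0.0158). Summed over the 9, the TPM was 0 and 1.47 at stage 15, then 55.5 and 50.8 at stage 20, then 369 and 389 at stage 25, and it reached 2483 and 3713 by stage 30. The model that follows the run carries the symbol LOC100170419.L and rose too, from 2.37 and 0.55 to 11.8 and 7.28 TPM. Another run of 4 models, from Xelaev18047607m, was called with changes from 2.65 to 3.46 and a summed TPM of 13.5 and 3.74 at stage 20 and 123 and 55.6 at stage 25. Models so close may be copies of one family, and reads that match several copies could be split among them by the authors' counting, so the level of any one model is uncertain.

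The L and S copies of a gene were compared through the ratio of their levels in 5683 pairs with at least 2 TPM in sum. The ratio moved toward L in 14 pairs (0.246%) and toward S in 10 (0.176%) in the same kind of limma fit, and 360 pairs had an unadjusted p under 0.05. Leaving out 1 library gave 2 to 9 pairs toward L and 0 to 2 toward S, with the fewest toward L without stage 25 Taira, and a pseudocount of 0.1 gave 1 and 1. Angiopoietin angpt4, a secreted ligand of vessel receptors, had copies with opposite changes. The copy angpt4.L went from 122 and 98.9 to 257 and 223 TPM and angpt4.S from 162 and 118 to 48.8 and 38.8, so the copy that was lower at stage 20 was the higher at stage 25 in both clutches. Neither copy was called on its own (limma, adjusted p = 0.747 for L and 0.0912 for S). The log2 ratio of L to S changed by 2.77 ± 0.51 (limma, adjusted p = 0.0247 over pairs), and this was the 1 pair in which one copy was at least 1 higher and the other at least 1 lower in both clutches.

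In gng3, syt8 and pex19 the copies also had changes of opposite sign in both clutches, and in fkbp10 the L copy stayed near its level. The neuronal G protein subunit gng3 shifted toward L by 1.97 ± 0.35, with gng3.L going from 12.5 and 4.36 to 22.8 and 22.9 TPM and gng3.S from 50.2 and 60.6 to 36.8 and 41.5. The collagen chaperone fkbp10 shifted toward S (-1.74 ± 0.30), with fkbp10.L at 416 and 703 and then 429 and 706 TPM and fkbp10.S at 12.3 and 12.8 and then 44.0 and 45.9. The vesicle protein syt8 shifted toward S (-1.91 ± 0.35), with syt8.S going from 15.2 and 5.05 to 42.4 and 20.3 TPM and syt8.L from 138 and 68.5 to 107 and 58.5. The peroxisome import factor pex19 shifted toward S as well (-1.58 ± 0.24), with pex19.L going from 6.78 and 7.25 to 2.36 and 2.24 TPM and pex19.S from 16.3 and 21.2 to 21.7 and 24.8.

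For eln2 (3.12 ± 0.35) and ifitm1 (-2.02 ± 0.34) the copy that did not move was under 1 TPM in all 4 libraries. So it was in the Nodal pathway factor foxh1 (-1.58 ± 0.29), in which foxh1.L went from 17.1 and 35.2 to 5.00 and 9.77 TPM and foxh1.S was at 0 to 0.13. Locus symbols LOC101732938 (2.03 ± 0.31) and Xetrov90027205m (1.64 ± 0.23) complete the pairs with the largest changes. In both, the L copy was higher and the S copy lower at stage 25 in each clutch. The L copy of LOC101732938 went from 8.82 and 2.59 to 14.3 and 4.43 TPM and its S copy from 10.85 and 5.33 to 3.05 and 1.63. Its higher copy thus changed from S to L in both clutches, as in angpt4. Over 5571 pairs with both copies tested singly, 1 pair had both copies called higher and 31 had 1. At least 1 higher in both clutches were both copies of 22 pairs and exactly 1 copy of 124, and at least 1 lower both copies of 8 pairs and 1 copy of 28. Reads shared by near-identical copies were divided by the authors' estimation, which could move a ratio.

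**Figure D5:**
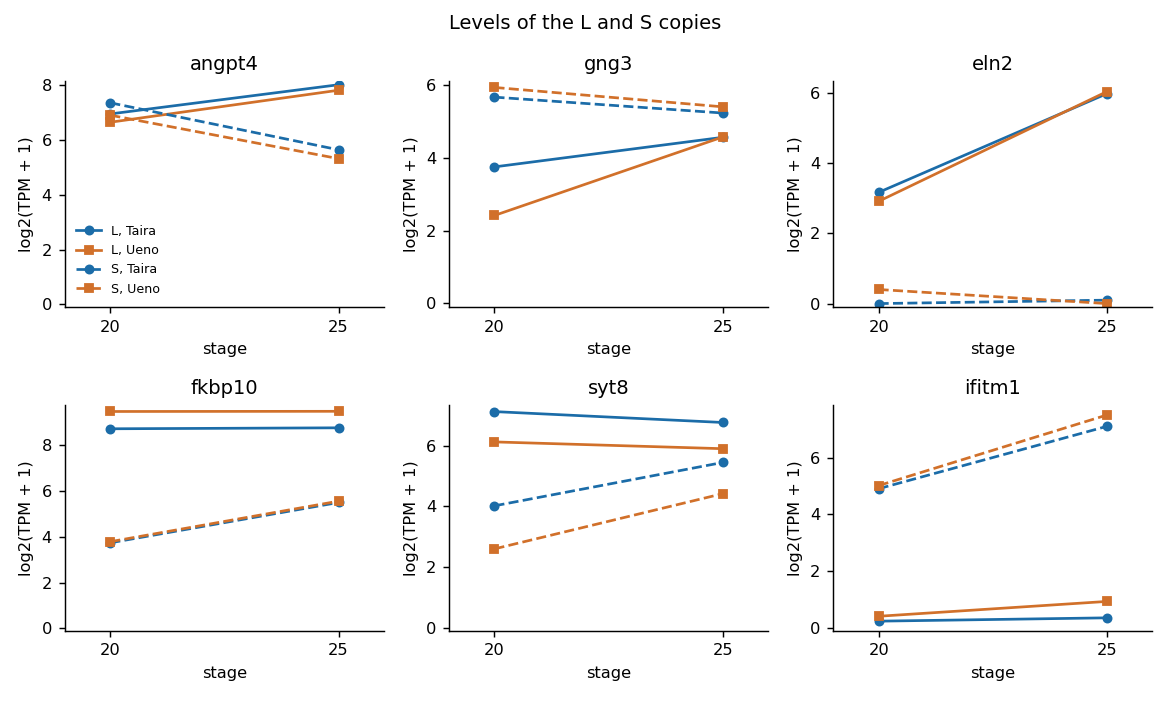
Level in log2(TPM + 1) at stage 20 and stage 25 of the L copy (solid lines) and the S copy (dashed lines) of 6 genes in clutch Taira (circles) and clutch Ueno (squares), 1 library per point. The lines of angpt4 cross in both clutches, while fkbp10.L stays level as fkbp10.S rises.

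In the same fit, the neighbouring intervals held more calls: 930 models from stage 15 to stage 20 (3.35%) and 813 from stage 25 to stage 30 (2.93%). These counts share libraries with the one from stage 20 to stage 25. The earlier one was 81 without stage 20 Ueno, 1659 without stage 20 Taira and 0 with stages 15 to 30 alone, and the later one was 338 without stage 25 Taira, 481 without stage 25 Ueno and 265 with stages 15 to 30 alone. When the change from stage 20 to stage 25 was tested against the change before it, 2 models differed, and against the change after it 27 did, 8 with the change from stage 20 to stage 25 the more positive and 19 with it the more negative. Neither of the 2 carries a symbol. Xelaev18000619m was at 17.0 and 8.47 TPM at stage 15 and at 0 in all 4 libraries of stages 20 and 25. Xelaev18024384m was at 1.80 and 1.66 TPM at stage 20 and at 0 at stages 15 and 25. The 27 were 2 without stage 25 Ueno, 10 without stage 20 Taira and 11 without stage 20 Ueno. The signalling gene nodal1.L was one of the 27, at 6.23 and 1.32 TPM at stage 20, up to 16.2 and 5.86 at stage 25, then down to 0.73 and 0 by stage 30 (limma, adjusted p = 0.0184 for the difference between the intervals). Nodal sets the left side of the frog embryo at these stages. The rest of the 8 more positive models carry no symbol. Of these, Xelaev18002226m was lower at stage 25 in both clutches (59.0 and 41.8 to 32.3 and 27.9 TPM). The remaining ones stayed at 3.78 TPM or less from stage 15 to stage 30. In the opposite group, tyrosinase tyr.S, the enzyme of melanin, was under 1 TPM in all 4 libraries of stages 20 and 25 and at 25.4 and 23.4 at stage 30 (adjusted p = 0.0456 in limma for the difference). The globin hbd.L was likewise at 0.48 and 0.63 TPM at stage 25 and at 17.4 and 11.1 at stage 30.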

How the data were processed

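The authors deposited TPM values, the unit used throughout, for 45831 gene models in 28 libraries. The submitters' processing notes name BWA 0.7.10 beside RSEM 1.2.19, with no roles, and settings and filters are not given in the sources used here. All columns have nearly the same sum, so depth is unknown, no count test was possible, and no limit for values of 0 is given.

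Models with TPM of at least 1 in at least 2 of 20 libraries (egg to stage 35) were tested with limma 3.58.1 in R 4.3.3 on log2(TPM + 1), with stage and clutch as terms, trended eBayes, 9 residual degrees of freedom and two-sided tests. Stage 40 was left out of the fit, since the library labelled stage 40 Ueno resembles eggs in an earlier account of these data. The clutch label pairs the libraries: differences between the clutches at stage 20 and at stage 25 correlated at 0.877 over 28196 models.

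Lists, rules and the comparison itself were chosen with earlier results of these data known. Named genes were the 15 largest rises and falls called, in the same direction in both clutches, with a symbol and a stage mean of 10 TPM or more where higher (24 and 5 symbols met this, and falls were filled to 10 with uncalled genes), and up to 4 called or 2 uncalled members per list. Lists are described by counts and medians only. Alternatives were pseudocounts of 0.1 and 5, other filters, scalings and fit windows, no block, no trend and each library left out. The fit was also run on data simulated from the same model with independent noise. Such data cannot test how the calls depend on the libraries that enter the fit.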

Additional observations from a re-analysis of the deposited data

Results flagged for a closer look

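Among the genes named for the largest differences between the clutches, 7 had changes of opposite sign in Taira and Ueno from stage 20 to stage 25. Each value has 1 library per clutch and stage, so the difference between the clutches was not tested. In lmo4.2.L, a LIM-only transcriptional regulator, the change in Taira minus the change in Ueno was 1.83 on the log2 scale, with 12.1 and 23.0 TPM in Taira at the successive stages and 63.4 and 32.1 in Ueno. In oxld1.S the difference was 1.57, in Xetrov90027901m.L 1.50 and in josd2.L, a deubiquitinase, 1.48. On the opposite side stood rflcii.1 with -5.71, Xetrov90004768m.L with -2.78 and pirin, pir.L, with -2.72. The last of these was at 34.8 and 25.2 TPM in Taira and 3.68 and 21.5 in Ueno.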

How the results depend on the processing

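All 108 called models that a setting tested kept their direction in it, but the number of calls depended on how the spread was estimated, and the cause was not tested. Against 93 higher and 15 lower, there were 26 and 7 with a pseudocount of 0.1, 40 and 5 with no replicate block, 2 and 0 with all 22 libraries (stage 40 included), 0 and 0 with the 4 libraries alone or with stages 15 to 30, and 14 and 1 with stages 12 to 35. Adding, after seeing the data, a mean TPM filter over the 4 libraries gave 4 and 0 for stages 15 to 30 and 33 and 4 for stages 12 to 35. Lower calls were 27 with median-of-ratios scaling and 44 with quantile normalization. Leaving out 1 library gave 21 to 80 higher and 3 to 10 lower, with the lowest for lower calls without stage 20 Taira or stage 25 Ueno.

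From stage 15 to stage 20 (930) the calls were 451 with a pseudocount of 0.1, 1833 with quantile normalization, 166 with no replicate block, 24 with 22 libraries, 0 and, filtered, 126 with stages 15 to 30, 100 and 491 with stages 12 to 35, and 81 to 1659 leaving out 1 library. From stage 25 to stage 30 (813) they were 357, 1770, 369, 22, 265, 393, 458 and 347 in the same order, 448 with the 4-library filter, 1411 with median-of-ratios scaling and 338 to 793 leaving out 1 library. Differences from the earlier interval (2) were 5 and 1 with pseudocounts of 0.1 and 5, 19 with no filter, 0 at TPM of at least 5 or with the 4-library filter, 1 with quantile normalization, 22 libraries or stages 12 to 35, 0 in the other windows and 0 to 9 leaving out 1 library. Differences from the later interval (27) were 10 with a pseudocount of 0.1, 63 with no filter, 3 with the 4-library filter, 50 and 66 with median-of-ratios scaling and quantile normalization, 15 with no replicate block, 3 with 22 libraries or stages 12 to 35, 0 in the other windows and 2 to 33 leaving out 1 library. Homeolog pairs toward L (14) and S (10) were 1 and 1 with a pseudocount of 0.1 and 0 and 0 with stages 15 to 30, and those toward L were 6 with no replicate block and 6 at a summed TPM of at least 10. Leaving out 1 library gave 2 to 9 and 0 to 2.

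Over the 20 settings, the named called models with the fewest calls were pou5f3.1.L and Xetrov90021856m.1 (6 each) and myoz1.S (7). Others, among them myl4.S, myoz2.S, hbz.L, ccdc67.L and rhbg.S, were called in 8. Of the named called models, krt16.L and eln2.L were called in 17 of 20 settings, pgam2.S in 16 and ifitm1.S in 15. Of 23 such models 9 remained called with no replicate block, 18 with median-of-ratios scaling, 20 with quantile normalization, 9 without stage 20 Taira, stage 20 Ueno or stage 25 Taira, and 16 without stage 25 Ueno. Among uncalled genes, leaving out 1 library changed the sign of slc24a5.L (-1.35 to 0.31), rpl38.L (-1.94 to 0.29), lmo4.2.L (-0.82 to 0.73, and 0.047 with quantile normalization), oxld1.S (-1.45 to 0.40), Xetrov90027901m.L (-0.63 to 1.01), josd2.L (-0.20 to 0.96), rflcii.1 (-0.29 to 5.15), ctrc.L (-0.012 to 5.36), gstp1.L (-0.58 to 5.17) and pir.L (-0.65 to 2.47). A fit without one library leaves its stage with 1, assumed to vary like the others. TPM keeps no depth, so how far counting error limits low values is unknown.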

Other observations

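Genes of left-right patterning were looked at after their values were seen. The Nodal antagonist lefty.L, at 27.6 and 36.4 TPM at stage 12 and 4.24 and 22.6 at stage 15, was higher at stage 25 than at stages 20 and 30 in both clutches, as was nodal1.L. It had 5.74 and 1.42 TPM at stage 20 (Taira, Ueno), then 18.9 and 8.77 at stage 25, then 5.00 and 1.56 by stage 30. Neither was called from stage 20 to stage 25 (limma, adjusted p = 0.471 for lefty.L and 0.192 for nodal1.L). The copy nodal1.S stood at 1.85 and 0.38 and then at 2.22 and 2.00 TPM.

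Among the genes whose change differed most between the clutches, some stood high in stage 25 Ueno alone of the 4 libraries compared. The digestive protease ctrc.L was at 40.7 TPM there, at 0 to 0.19 in the other 3 libraries and at 0.34 and 0.33 at stage 30. The model rflcii.1 was at 42.3 TPM there and at 0.11 to 0.60 in the other 3, and rflcii.L was at 13.1 and at 0 to 0.44. In the libraries labelled stage 40, ctrc.L was at 20.3 and 30.4 TPM (Taira, Ueno) and rflcii.1 at 0.17 and 18.1. The library labelled stage 40 Ueno resembles eggs, with ccna1.S at 4279 TPM against 1.58 in stage 40 Taira, so its values may not be of that stage. By contrast, glutathione transferase gstp1.L was high in both Taira libraries, at 787 and 806 TPM at the successive stages, against 9.31 and 241 in Ueno.

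The models of myl4.S and mapt.S, both called higher, carry consecutive numbers.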
